A study of Sus scrofa with 2 samples.

Results

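The autosomes of muscle DNA were divided into fixed bins of 100 kb, and the bins in which CpG methylation was high in both pigs of the study are described here. A bin was eligible when at least 100 cytosines in it were listed for both pigs with at most 60 reads in each. The level of a cytosine was its methylated reads over all its reads, and bins were chosen by these levels: a member had a mean level over its cytosines of 80% or more in both pigs. Of 21120 eligible bins on chromosomes 1 to 18, 2756 (13.0%) were members, and together they covered 275.6 Mb. They held 902350 of the 6200097 cytosines in eligible bins, 14.6%.

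Methylation was read by whole-genome bisulfite sequencing of longissimus dorsi, the long muscle of the back, from 2 female Tibetan pigs. One ranged freely on the Tibetan highland, whose altitude averages 4000 m, and is called the highland pig. The other was kept on the plain of Chengdu, whose altitude averages 500 m, was fed daily under experimental conditions, and came from Tibetan pigs that had been moved to the lowland generations earlier; it is called the lowland pig. Each altitude was thus represented by 1 pig and 1 library, so differences have no replicate error, and altitude, feeding, keeping and descent cannot be told apart. The lists held 10441737 nuclear cytosines with 99955761 reads in the first and 10104425 with 95363149 reads in the second library, at a median of 8 reads per cytosine in both. They name only cytosines read 5 times or more with 1 or more methylated reads, so that CpGs without methylated reads do not enter any level given here. Muscle is a mixture of fibre and other cells, and each level is an average over the cells and over both copies of a chromosome. The labelled tissue was not checked against marker genes, since no gene was placed on these positions.

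In mammals, methyl groups are put on cytosines almost wholly where a guanine follows, by the enzymes DNMT3A and DNMT3B, and are copied onto the new strand after replication by DNMT1. Most CpGs of a somatic cell carry the mark, whereas active promoters and many enhancers lack it. Over longer stretches the level is uneven: gene bodies that are transcribed tend to be highly methylated, and late-replicating, gene-poor chromatin often loses part of the mark. A 100 kb bin is long enough to hold several genes or none, and its mean blends these elements.

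The members were highly methylated in both pigs, as the rule requires. Their mean level was 83.2% ± 1.86 (SD over 2756 bins) in the highland pig and 82.7% ± 1.82 in the lowland pig. The other 18364 eligible bins had 72.3% ± 6.94 and 71.2% ± 6.86. Members grew fewer with distance above the threshold: of the 2756, 1378 were at 82% or more in both pigs, 485 at 84% or more, 94 at 86% or more and 8 at 88% or more. The highest level of any bin was 90.2% in the highland and 89.2% in the lowland pig, in different bins. These levels were used to choose the members and are a description.

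**Figure D1:**
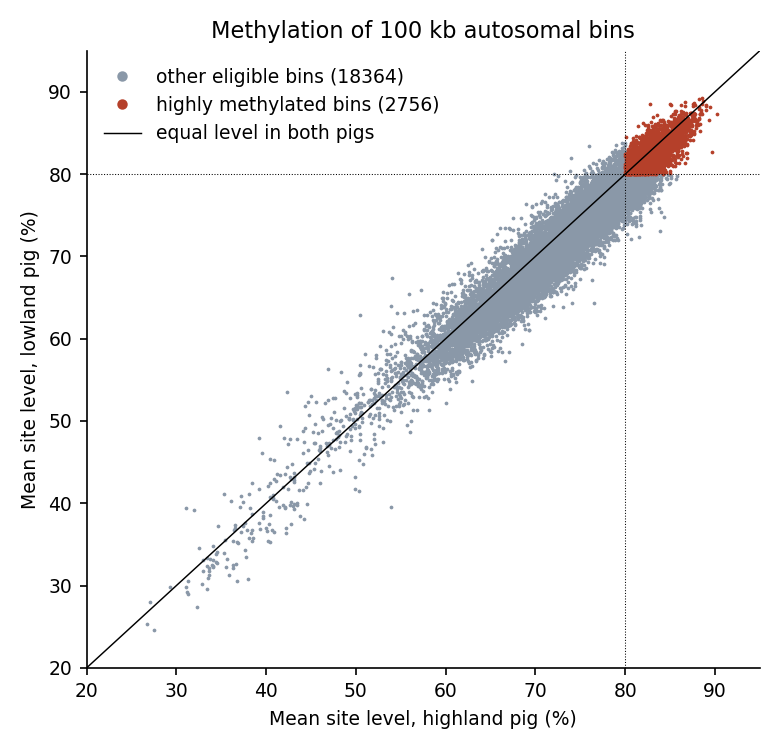
Mean site level of each of the 21120 eligible 100 kb bins in the highland pig (x axis, %) and the lowland pig (y axis, %), with the 2756 highly methylated bins in red, the 18364 others in grey, and dotted lines at 80%. The members form the upper end of a continuous cloud, with no gap between them and the other bins.

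The threshold cuts through this cloud. The median error of a bin's level, as the SE over its cytosines, was 1.01 points in each pig among members. Of the 2756 members, 1262 (45.8%) exceeded 80% by at least 2 SE in both pigs. Cytosines close together can share reads and are not independent, so this SE is likely too small and the count too large. The member just inside the threshold, on chromosome 6 from 75000001 to 75100000, had 82.5% and 80.0003% over 143 cytosines. The bin just outside, on chromosome 17 from 46200001 to 46300000, had 82.2% and 79.9995% over 253 cytosines. A further 1235 bins reached 80% in the highland pig alone and 332 in the lowland pig alone.

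The 5 members with the highest level in the pig where they were lower illustrate the top of the range. On chromosome 13, the bin from 90900001 to 91000000 had 88.7% ± 0.629 (SE over 423 cytosines) in the highland and 88.9% ± 0.599 in the lowland pig. On chromosome 16, the bin from 23400001 to 23500000 had 88.6% ± 0.567 and 89.2% ± 0.505 over 524 cytosines. On chromosome 9, the bin from 88600001 to 88700000 had 88.6% ± 0.612 and 88.5% ± 0.582 over 457 cytosines. In these bins the pigs differed by less than the SE of their difference over cytosines, which was 0.637 points in the bin on chromosome 16. The same held for the bins on chromosome 13 from 86600001 to 86700000, with 89.1% ± 1.02 and 88.4% ± 1.11 over 141 cytosines, and on chromosome 11 from 8900001 to 9000000, with 88.3% ± 1.05 and 89.1% ± 0.906 over 188 cytosines. These bins were chosen by their level in the pig where they were lower, which favours a small gap between the pigs. No gene is given for any bin, because the positions belong to another assembly than the gene table at hand.

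Cytosines listed in only one of the libraries were not used by the rule, and their level was higher in the members than in the other bins. Within members there were 443070 such cytosines in the highland and 401393 in the lowland library. Averaged by bin, for bins with at least 20 of them, their level in members was 81.0% ± 3.29 (SD over 2756 bins) in the highland and 80.4% ± 3.46 (2753 bins) in the lowland pig. In the other bins it was 70.8% ± 7.16 (18339 bins) and 69.9% ± 7.20 (18314 bins). The gap between the classes, taken over single cytosines, was 9.16 points in the highland and 9.38 points in the lowland pig. Of the member bins, 62.4% and 56.4% were at 80% or more at these cytosines, against 4.85% and 3.13% of the other bins. The 10th percentile of the members, 76.7% and 76.0%, lay above the median of the other bins, 71.9% and 71.0%. With at least 10 reads per cytosine, fewer bins held 20 of them, 508 and 230 members. The members' mean was then 76.9% ± 6.92 and 76.1% ± 7.20, below the 80% of the rule, and 33.5% and 31.7% of them were at 80% or more, against 5.18% and 5.04% of the other bins. These cytosines come from the same libraries and bins as those the rule used and can share reads with them. They are therefore no independent check of the members. Bins along 1 genome are not replicates, and no test was made of these gaps.

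**Figure D2:**
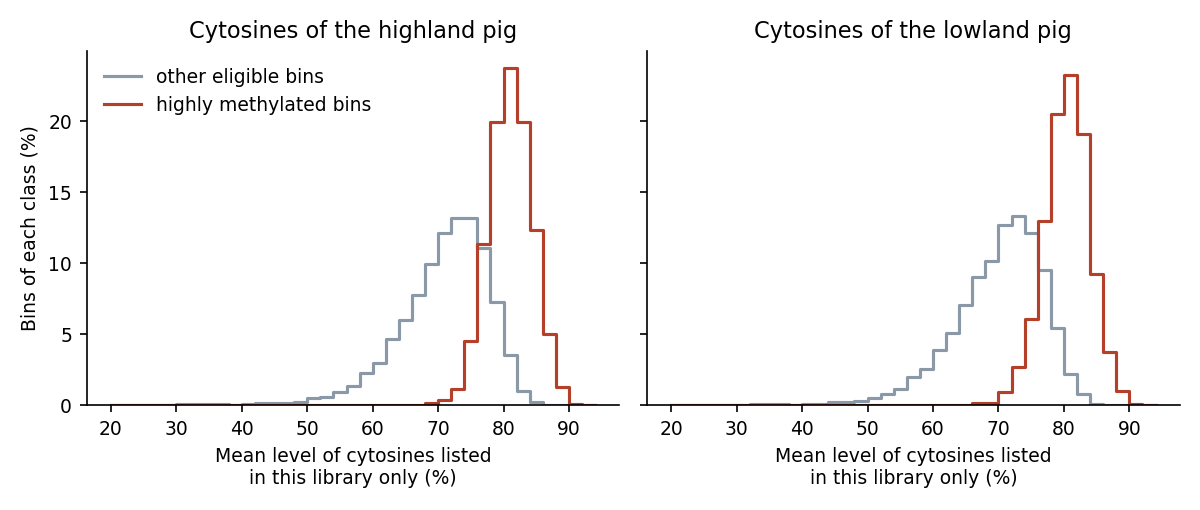
Share of bins (y axis, % of each class) by the mean level of cytosines listed in only the highland (left) or only the lowland library (right), in classes of 2 points (x axis, %), for highly methylated bins in red and other bins in grey. The members centre near 81.0% and 80.4% and the other bins near 70.8% and 69.9%, with overlapping flanks.

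Depth at these cytosines was low and nearly equal in both classes, with means of 6.58 reads in members and 6.71 in the other bins of the highland library, and of 6.44 and 6.58 in the lowland library. Cytosines listed in both libraries with more than 60 reads in at least one, which the rule also left out, were rare in members, with 86 in 24 bins. Their mean level was 65.7% ± 27.3 (SD over cytosines) and 64.3% ± 25.6, below that of the bins they lie in. In the other bins there were 16554 in 398 bins, with 42.7% ± 23.8 and 42.6% ± 23.9.

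High bins differed from the others over the whole range of single cytosines, and not by their fully methylated cytosines alone. Among cytosines with at least 10 reads in both pigs, of which members held 273738, 46.4% in the highland and 44.4% in the lowland pig were at 90% or more. In the other bins, with 1703911 such cytosines, the shares were 24.0% and 21.7%. Cytosines below 50% made up 5.05% and 4.90% in members, and 16.3% and 16.9% in the other bins. Below 20% were 0.672% and 0.638% in members and 2.65% and 2.66% elsewhere. The same cytosine was at 90% or more in both pigs in 26.6% of cases in members and 10.5% in the other bins, and below 50% in both pigs in 2.22% and 9.73%. Cytosine levels were used by the rule, so these shares describe how the high means are made up.

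**Figure D3:**
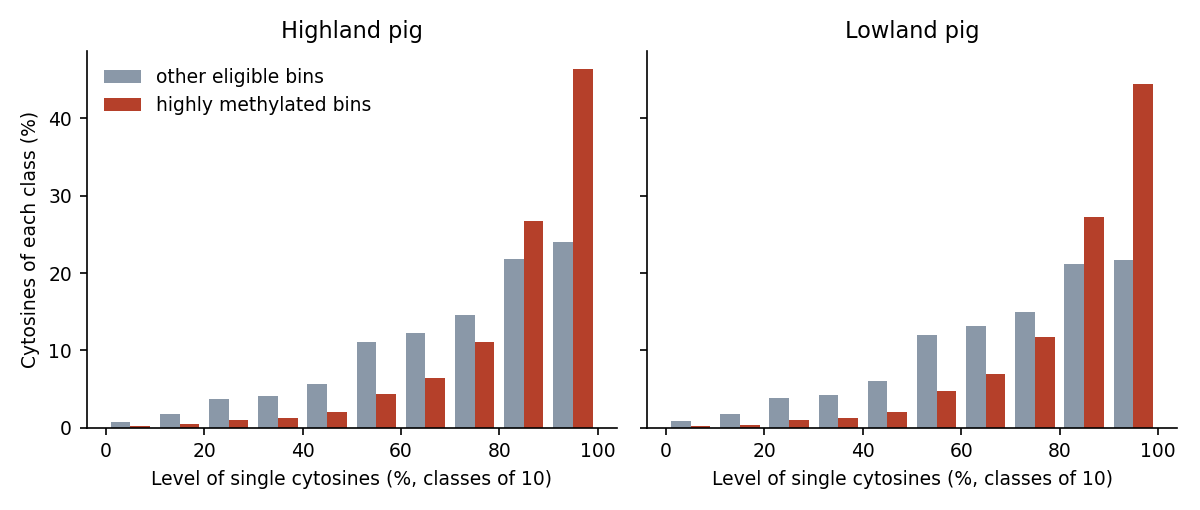
Share of cytosines (y axis, % of each class) by methylation level in classes of 10 points (x axis, %) in the highland (left) and lowland pig (right), at cytosines with at least 10 reads in both, for highly methylated bins in red and other bins in grey. The class at 90% or more holds 46.4% and 44.4% of the cytosines in members, against 24.0% and 21.7% elsewhere.

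Both strands were methylated alike in members and in the other bins. At 134812 CpGs of members whose cytosines were listed on both strands, the mean level was 84.8% on the plus and 84.7% on the minus strand in the highland pig, and 84.1% on both in the lowland pig. The mean absolute difference between the strands of a CpG was 12.6 points and 13.2 points, against 15.2 and 15.8 points at 771933 CpGs of the other bins. At the few reads per cytosine, counting error is part of each of these differences. It depends on the level, by which members were chosen, so the smaller difference in members is a description. The strand means were also alike in the other bins. They were 74.1% (plus) and 74.0% (minus) in the highland pig, and 72.9% and 72.8% in the lowland pig.

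Members carried more listed cytosines than the other bins. They held 327 ± 134 (SD) shared cytosines per bin, against 288 ± 119 in the other bins, and the mean was higher in members on each of the 18 chromosomes. With cytosines of either list counted, the means were 634 and 553 per bin. The share listed in both libraries was nearly equal, at 51.7% in members and 52.2% in the others. When eligible bins were sorted into 4 classes of like size by their number of shared cytosines, 10.4% were members in the class with 100 to 198 cytosines, 10.5% with 199 to 286, 11.3% with 287 to 367 and 20.03% with 368 to 1425. The excess thus lay in the class richest in listed CpGs. How many CpGs the sequence holds was not measured, since CpGs without methylated reads are absent from the lists. For the same reason the number listed can itself depend on the level by which members were chosen.

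Read depth also moved with membership, and its part in the result was not tested. Members had 10.3 reads per cytosine in the highland and 10.01 in the lowland library, against 10.6 and 10.3 in the other bins. Across 4 classes of like size, from shallow to deep, the share of members was 14.6%, 15.4%, 14.8% and 7.44% in the highland library, and 14.7%, 16.0%, 13.7% and 7.78% in the lowland library, each time lowest in the deepest class.

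Within members the level depended little on how closely CpGs were spaced. The median distance of a cytosine's CpG to the nearest other listed CpG was 41 bp in members and 47 bp in the other bins, and 31.7% and 28.3% lay within 20 bp of another. In members, cytosines with a neighbour within 20 bp had levels of 85.02% and 84.7% in the highland and the lowland pig. With the nearest neighbour 51 to 100 bp away the levels were 81.8% and 81.2%. Over 100 and up to 500 bp away they were 82.3% and 81.7%, so the members' levels did not fall at each step. Beyond 500 bp they were 81.5% and 80.8%. In the other bins the level fell further along the same classes, from 77.99% and 77.1% within 20 bp to 69.6% and 68.4% over 100 and up to 500 bp away and 66.4% and 65.2% beyond 500 bp. The members' levels are bounded by the rule, so the narrower range within them is a description. Distances were taken between listed CpGs only, so they too can depend on the level.

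The members with the most shared cytosines lay towards the end of chromosomes 8 and 18. The bin from 146900001 to 147000000 on chromosome 8 held 1101 cytosines, with 85.1% ± 0.538 (SE over cytosines) and 84.2% ± 0.537. On the same chromosome, that from 143200001 to 143300000 held 972, with 81.97% ± 0.627 and 81.4% ± 0.660. The bin from 60600001 to 60700000 on chromosome 18 held 948, with 83.8% ± 0.602 and 84.2% ± 0.534. At cytosines of a single library, the bin with 1101 shared cytosines had 82.9% (386 cytosines) and 82.2% (393 cytosines).

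Members occurred on every autosome, with unequal frequency. Their share of eligible bins ran from 8.38% on chromosome 16 (66 of 788) to 18.9% on chromosome 12 (99 of 523). Chromosome 18 followed with 16.2% (88 of 543), and chromosomes 1, 3 and 14 had 14.7%, 14.7% and 14.6%. Chromosome 15 had 11.3% (151 of 1342), the lowest share after chromosome 16. The mean level of members differed little between chromosomes, from 82.8% on chromosome 12 to 83.4% on chromosome 1 in the highland pig. In the lowland pig, chromosome 14 had the lowest mean with 82.4% and chromosome 15 the highest with 82.9%. Chromosome 12, with the largest share of members, had the lowest member mean in the highland pig.

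**Figure D4:**
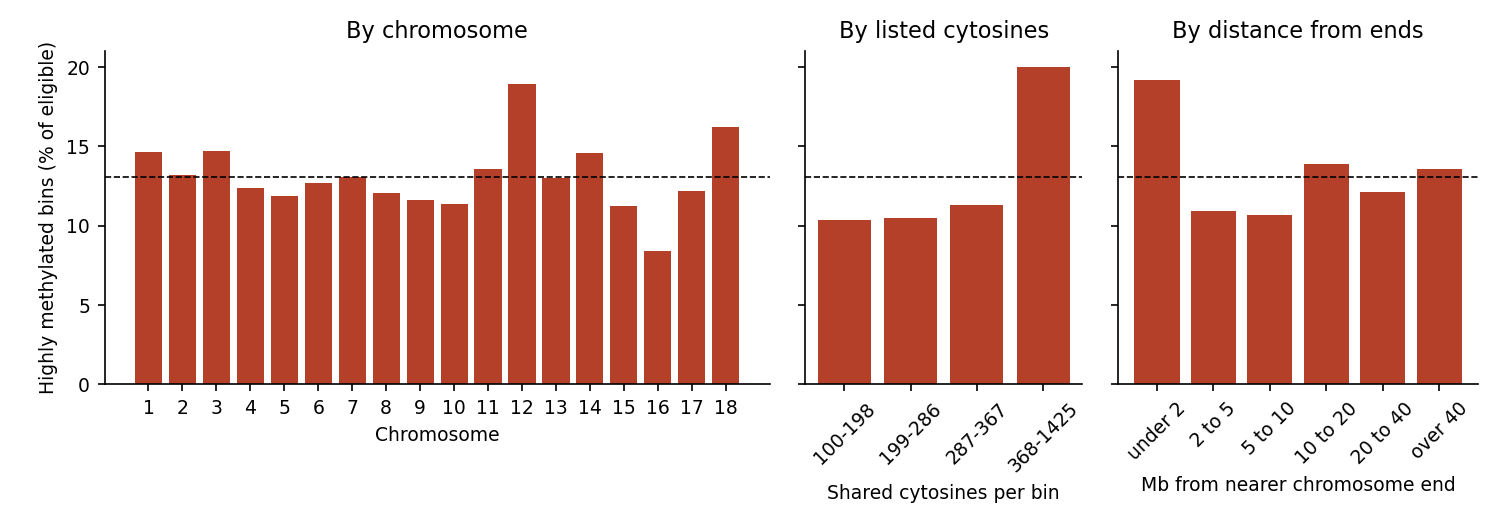
Share of eligible bins that are highly methylated (y axis, %) by chromosome (left), by shared cytosines per bin in 4 classes (middle) and by distance of the bin's centre from the nearer end of the listed chromosome in Mb (right); the dashed line marks 13.0%, the share over all eligible bins. Chromosome 12 (18.9%), the class with the most cytosines (20.03%) and the outermost 2 Mb (19.2%) stand above the line.

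The outermost 2 Mb of the chromosomes, counted from the first and last listed position, had the largest share of members among 6 classes of distance. There 102 of 532 eligible bins were members, 19.2%. The share was 10.9% from 2 to 5 Mb, 10.7% from 5 to 10 Mb, 13.9% from 10 to 20 Mb, 12.1% from 20 to 40 Mb and 13.6% beyond 40 Mb. The mean level of all bins in the outermost 2 Mb was not raised, at 72.7% ± 11.3 (SD over bins) and 72.1% ± 11.4, against 73.7% ± 7.46 and 72.7% ± 7.51 over all eligible bins. The ends thus held more high bins together with a wider spread. Bins below 70% in both pigs were not more frequent there, at 23.5% against 24.5% over all eligible bins. Of 36 chromosome ends, 27 held a member and 18 exceeded the overall share of 13.0%. The start of chromosome 8 had 10 members among 16 eligible bins, the end of chromosome 18 had 9 among 17 and the start of chromosome 12 had 7 among 15, whereas both ends of chromosome 16 had none. These ends were chosen after their values were seen.

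High bins lay next to each other. Of the 2756 members, 1624 (58.9%) adjoined another member, in 619 runs of at least 2 bins, and 1132 stood alone. Of the 4401 eligible bins beside a member, 36.9% were members themselves, against 6.77% of the 16719 bins that were not. There were 232 runs of at least 3 bins and 37 of at least 5, and the longest held 9. Joined across single bins that were no members, 70.4% of members lay in runs of at least 2 and the longest run spanned 15 bins.

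The longest run lay on chromosome 4 from 40000001 to 40900000, with 9 bins and 3454 cytosines. Its mean level was 84.1% ± 1.95 (SD over bins) in the highland and 83.6% ± 2.55 in the lowland pig. It was highest near the middle, with 86.9% and 86.3% in the bin from 40300001 to 40400000, and lower at its outer bins, with 81.4% and 80.6% in the first and 81.4% and 80.1% in the last. The bins just before and after it had 72.8% and 73.9%, and 71.2% and 72.6%. On both sides the level thus dropped by more than the spread over the run's bins.

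Other long runs ended less sharply. The run of 8 bins on chromosome 1 from 124800001 to 125600000 had 84.5% ± 0.522 and 83.3% ± 1.44 over 2420 cytosines. The bins beside it were high as well, at 83.4% and 79.5% before and 82.3% and 79.2% after, and missed the rule in the lowland pig alone. Of 3 runs of 7 bins, that on chromosome 3 from 14100001 to 14800000 had 84.2% ± 1.63 and 83.9% ± 1.89, and its neighbours had 79.3% and 79.1% before and 79.6% and 80.8% after. The run on chromosome 8 from 32300001 to 33000000 had 83.6% ± 2.15 and 83.2% ± 2.33, with a peak of 86.7% and 87.4% in the bin from 32700001 to 32800000, and neighbours at 75.04% and 76.5% before and 76.2% and 75.5% after. The run on chromosome 4 from 87100001 to 87800000 had 83.0% ± 1.52 and 82.8% ± 1.70, with 77.9% and 75.6% before and 80.9% and 77.8% after.

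Across the edges of the 232 runs of at least 3 bins, the level was followed in sub-bins of 10 kb with at least 5 shared cytosines. It was 76.2% ± 7.89 (SD over 370 sub-bins) and 74.9% ± 7.86 at 80 to 90 kb outside the edge, in the highland and the lowland pig. In the last 10 kb outside it was 78.9% ± 7.72 and 78.9% ± 7.79, and in the first 10 kb inside 81.4% ± 6.87 and 80.7% ± 6.91. At 50 to 60 kb inside it reached 83.6% ± 5.36 and 82.9% ± 5.38. The mean thus climbed over more than 10 kb on each side of the edge. The step at the edge follows from the choice of members. A single run can have a sharper edge than this mean, because edges were fixed at multiples of 100 kb.

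**Figure D5:**
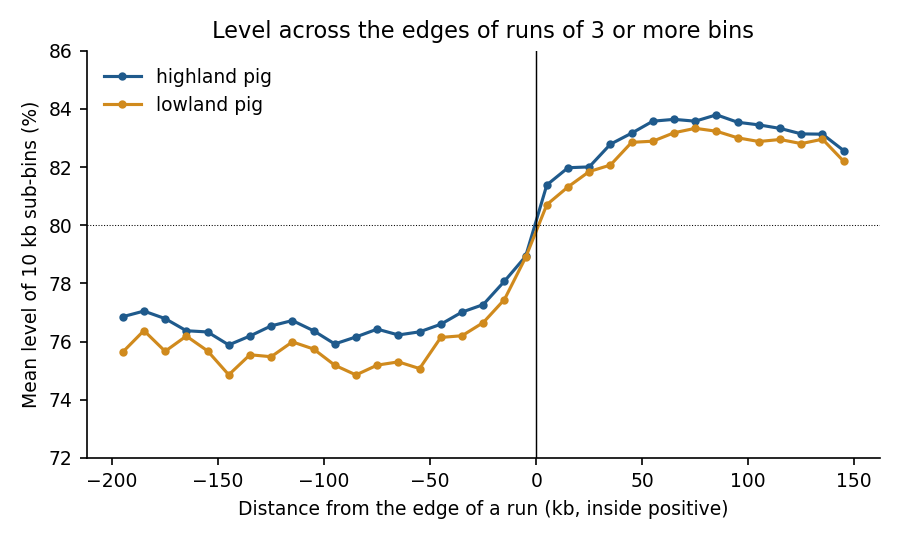
Mean level of 10 kb sub-bins (y axis, %, from 72 to 86) by distance from the edge of runs of at least 3 highly methylated bins (x axis, kb, positive inside), for the highland pig in blue and the lowland pig in orange. Both lines climb from 76.2% and 74.9% at 80 to 90 kb outside to 83.6% and 82.9% at 50 to 60 kb inside.

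Bins near members that were not members themselves were higher than the other bins at large. The 2777 such bins 100 kb from a member had mean levels of 76.7% ± 4.27 (SD over bins) and 75.8% ± 4.24, against 72.3% ± 6.94 and 71.2% ± 6.86 over all bins that were no members. At 500 kb the means were 74.1% ± 6.04 and 73.1% ± 5.92 (3553 bins), at 1000 kb 73.4% ± 6.21 and 72.5% ± 6.08 (3710 bins), and at 5000 kb 72.4% ± 6.70 and 71.3% ± 6.62 (3790 bins), close to the mean of all non-members. Members were also paired with the eligible bins at these distances, so that a bin could count more than once. The paired bin was a member in 39.98% of pairs at 100 kb, 20.6% at 500 kb, 16.1% at 1000 kb and 12.8% at 5000 kb. Over all eligible bins, each counted once, the share was 13.0%. With each bin counted once, 36.9% of those beside a member were members, as given above.

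The level within members was also followed at the scale of 10 kb, at the cytosines the rule had used, so that the contrast with the other bins is set by the choice. Of 20064 sub-bins of 10 kb with at least 20 shared cytosines in members, 66.3% were at 80% or more in both pigs, 1.28% were below 70% in both and 2 were below 50% in both. Of 128000 sub-bins in the other bins, 10.4% were at 80% or more, 28.8% below 70% and 1.11% below 50% in both. The lowest sub-bin of a member lay on chromosome 16 from 53230001 to 53240000, with 46.5% and 49.4% over 28 cytosines, while the rest of its bin, from 53200001 to 53300000, had 84.5% and 85.4%. On chromosome 8, the sub-bin from 8720001 to 8730000 had 49.6% and 48.1% over 28 cytosines, and the rest of its bin had 84.5% and 83.8%. On chromosome 1, the sub-bin from 117090001 to 117100000 had 49.7% and 52.3% over 22 cytosines, and the rest of its bin had 82.9% and 81.9%. In each of the 3 bins the sub-bin was low in both pigs. The first 2 are those counted above as below 50% in both, and all 3 were named for being lowest. A similar level in both pigs is thus partly set by that choice.

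At the scale of 1 kb, members held 65052 windows in which 5 or more CpGs were listed for both pigs, with the strands of a CpG summed. Of these, 6636 (10.2%) were at 90% or more in both pigs, against 1.92% of 348974 windows in the other bins. Windows below 40% in both pigs numbered 96 (0.148%) and lay in 92 members, against 1.01% of windows elsewhere. Windows at 40 to 60% in both pigs made up 1.11% (720 windows) in members and 6.68% elsewhere. These windows hold the reads by which members were chosen, so a smaller share of low windows in members follows from the rule.

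The levels of the members were slightly lower in the lowland pig. The mean difference, lowland minus highland, was −0.500 points ± 1.37 (SD over 2756 bins), and 1808 members (65.6%) were lower in the lowland pig. In the other bins it was −1.10 points ± 2.09, and 72.3% were lower. The mean over members was negative on each of the 18 chromosomes, from −0.0828 points on chromosome 18 to −0.758 points on chromosome 14, and was smaller in size than that of the other bins on each. Levels within 2 points of each other were found in 83.4% of members and 60.8% of the other bins. A difference of more than 2 SE over cytosines was found towards a lower level in 290 members (10.5%) and towards a higher one in 76 (2.76%), and in 22.6% and 3.46% of the other bins. Since neighbouring cytosines are not independent, this SE is likely too small and these counts too large. The rule bounds both levels from below and so limits the differences that members can show.

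How the bins were chosen moved this value. Of the 3991 bins at 80% or more in the highland pig, whatever their level in the other, the mean difference was −1.17 points ± 1.72 (SD) and 69.1% also reached 80% in the lowland pig. Of the 3088 bins at 80% or more in the lowland pig it was −0.237 points ± 1.55, and 89.2% also reached 80% in the highland pig. At cytosines listed in one library only, which took no part in the choice but are not the same cytosines in both pigs, the difference was −0.610 points ± 3.69 (SD over 2753 bins) in members and −0.938 points ± 4.59 (18293 bins) elsewhere. There 56.4% of members and 59.0% of the other bins were lower in the lowland pig. In both classes the SD over bins exceeded the mean difference.

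Over members, the levels of both pigs had a correlation of 0.724 across 2756 bins, and over all 21120 eligible bins of 0.964. Both values share the positions and the listing in both libraries, and the first covers a range narrowed by the rule.

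More than 5 points of difference were found in 3 members (0.109%) and in 634 of the other bins (3.45%), where the rule set no limit. Of the 3 members, the bin on chromosome 2 from 128400001 to 128500000 had 89.7% ± 0.559 (SE over 381 cytosines) in the highland and 82.7% ± 1.001 in the lowland pig, a difference of −6.98 points ± 1.04. It was among the highest bins of the highland pig. Its cytosines listed in one library only had 92.1% (152 cytosines) and 81.6% (99 cytosines), which is the same direction. The rule did not use these cytosines, but they can share reads with those it used and are no independent check. On chromosome 11, the bin from 35100001 to 35200000 had 86.7% ± 1.23 and 81.4% ± 1.51 over 180 cytosines, a difference of −5.29 points ± 1.31. There the cytosines of one library had 82.8% (47 cytosines) and 83.1% (58 cytosines) and did not show the fall. Next in size, at 22200001 to 22300000 of the same chromosome, a bin had 86.8% ± 1.22 and 81.95% ± 1.67, a difference of −4.89 points ± 1.76, with 85.9% and 81.6% at cytosines of one library.

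The largest rise was on chromosome 6 from 138100001 to 138200000, with 82.8% ± 1.02 in the highland and 88.5% ± 0.659 in the lowland pig over 362 cytosines, a difference of 5.71 points ± 1.15. Its cytosines of one library had 80.3% (143 cytosines) and 87.2% (99 cytosines), again in the same direction and again no independent check. The bin on chromosome 18 from 14500001 to 14600000 had 81.5% ± 1.09 and 85.8% ± 0.891, a difference of 4.33 points ± 1.14, with 81.8% and 85.1% at cytosines of one library. The bin on chromosome 2 from 16500001 to 16600000 had 80.1% ± 1.65 and 84.5% ± 1.55, a difference of 4.42 points ± 1.73, with 81.1% in both pigs at cytosines of one library. These bins are the extremes among 2756 and were named for their size.

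Each 1 kb window was also compared between the libraries, by a two-sided Fisher's exact test on its summed reads, adjusted by Benjamini-Hochberg over all 462691 nuclear windows. A window counted as called when its adjusted p was under 0.05 and its levels were 20 points or more apart. The test compares 1 library with another, not the altitudes, and since neighbouring reads are not independent its p-values are too small. Members held 235 called windows among 65052, 0.361%, against 0.494% called over all windows. Of these, 130 were lower in the lowland pig (0.1998% of windows, against 0.306% called lower over all windows) and 105 higher (0.161%, against 0.188% called higher over all windows). The called windows lay in 217 members, with at most 3 in one bin. The test used the same reads as the rule, and the shares are given as a description.

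Called windows are by definition at least 20 points apart between the pigs. In members, those lower in the lowland pig had a median level of 90.9% in the highland and 64.3% in the lowland pig. Those higher in the lowland pig had 62.5% and 90.2%.

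The largest fall lay on chromosome 9 from 42888001 to 42889000, where 97.9% (47 of 48 reads, 95% Wilson interval 89.1 to 99.6) were methylated in the highland and 54.2% (26 of 48 reads, 40.3 to 67.4) in the lowland pig over 5 CpGs (Fisher's exact test, adjusted p = 0.000521). Means of 83.4% and 84.3% were found in 3 other windows within 3 kb. On chromosome 18, from 60583001 to 60584000, the levels were 90% (63 of 70 reads, 80.8 to 95.1) and 48.8% (20 of 41 reads, 34.3 to 63.5), with 84.6% and 86.6% in 5 windows nearby (exact test, adjusted p = 0.00242). On chromosome 13, from 158575001 to 158576000, they were 91.9% (57 of 62 reads, 82.5 to 96.5) and 52.5% (32 of 61 reads, 40.2 to 64.5), with an adjusted p of 0.000941 by the exact test. The only tested window near it had 83.1% and 85.4%. None of these falls was shared by the tested window or the mean of the tested windows around it.

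The largest rise lay on chromosome 1 from 200235001 to 200236000, with 44.4% (20 of 45 reads, 95% Wilson interval 30.9 to 58.8) and 93.8% (30 of 32 reads, 79.9 to 98.3) over 5 CpGs (Fisher's exact test, adjusted p = 0.00452). Its only tested neighbour within 3 kb had 77.8% and 78.05%. On chromosome 6, from 154839001 to 154840000, the levels were 46.7% (28 of 60 reads, 34.6 to 59.1) and 92.9% (39 of 42 reads, 81.0 to 97.5) over 7 CpGs, with 82.4% and 84.6% in 4 windows nearby (exact test, adjusted p = 0.000831). On chromosome 11, from 89001 to 90000, they were 43.3% (26 of 60 reads, 31.6 to 55.9) and 85.4% (35 of 41 reads, 71.6 to 93.1), with 80.5% and 78.6% in 2 windows nearby (exact test, adjusted p = 0.0112). In the bins around these windows the pigs differed by far less, as in the bin on chromosome 1 from 200200001 to 200300000, with 83.6% and 85.1%. Intervals cover counting error only, and reads may include copies of the same molecule.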

How the data were processed

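Bisulfite-converted DNA of 1 muscle per altitude was sequenced. The submitters' processing notes name Bismark 0.12.5. The build, the filters and the handling of duplicates were not given in the sources used here. The deposited files hold counts of methylated and unmethylated reads per CpG cytosine, a fraction for the methylation level, and p-values before and after correction, per the file headers. Levels were computed from the counts; the deposited fraction and p-value were not used. File positions are printed unchanged. Because they exceed the last gene end in the available pig gene table on 17 of 18 autosomes, by up to 41.0 Mb, genes were not assigned and no sequence is shown.

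Of 6397643 autosomal cytosines listed in both libraries, 16922 with more than 60 reads were left out, and 3284 of 24404 bins had fewer than 100 cytosines. Members and lists were chosen with earlier results of these data known. Regions were named by extremes: the highest level, the largest rise and fall, the longest runs (ties by mean level), the most cytosines, the lowest 10 kb sub-bin, the largest called windows and the bins beside the threshold. Bin levels are means of cytosine levels. The bin rule and the window test were run on simulated data to check the code. The simulated bins lay far from the threshold, unlike many of the real bins. Python 3.11.15, numpy 2.4.6, pandas 2.3.3 and scipy 1.17.1 were used. Alternatives changed depth limits, bin size and offset, threshold, strand and window criteria.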

Additional observations from a re-analysis of the deposited data

How the results depend on the processing

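No paired analysis was possible because each altitude has 1 library. The number of members was 1468 of 8763 eligible bins when cytosines needed at least 10 reads, since fewer bins then held 100 cytosines, 4809 at a threshold of 78% and 1378 at 82%. With no upper limit on reads, a limit of 30 reads, levels over reads, at least 200 cytosines, bins shifted by 50 kb or 1 strand alone, it ran from 2204 to 2833. For 1 strand alone, fewer cytosines per bin were required than under the rule. Bins of 50 kb and of 200 kb, with the required number of cytosines scaled to their size, gave 284.4 and 249.6 Mb. The mean level in the highland and the lowland pig was 83.5% and 83.0% with at least 10 reads, 83.1% and 82.6% with at least 200 cytosines, 83.1% and 82.6% with shifted bins, 83.4% and 82.9% on the plus strand, and 83.3% and 82.8% on the minus strand. The difference between the pigs stayed negative in each of these. It was −1.17 points in bins chosen in the highland library alone and −0.237 points in those chosen in the lowland library alone, a choice added after seeing the data. At cytosines of one library, members exceeded other bins by 12.2 and 12.8 points with at least 10 reads, where their own level fell to 77.5% and 76.1% and the share of member bins at 80% or more to 33.5% and 31.7%, and by 9.71 and 9.99 points over reads. Members held 29 called windows when windows needed at least 10 CpGs, 68 at a difference of at least 30 points and 121 when CpGs needed at least 10 reads, and the called share was below that over all windows each time. Joining runs across 1 bin gave 658 runs of at least 2 members, with 70.4% of members in them and a longest run of 15 bins. At 8 reads per cytosine, single cytosines and windows of few CpGs allow only large differences to be called.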

Other observations

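The rule left out the X chromosome, which is inactive on one copy in female cells. Under the same limits on cytosines and reads, 5 of its 1176 eligible bins (0.425%) were at 80% or more in both pigs, against 13.0% on the autosomes. The mean level of its bins was 60.5% ± 8.02 (SD over bins) in the highland and 58.9% ± 7.59 in the lowland pig. Its highest bins reached 87.5% and 86.4%, within the range of the autosomal members.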
